A study of Rattus norvegicus with 8 samples.

Results

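The Nrf2 and antioxidant defence genes were followed in peritoneal macrophages taken from rats that had received carbon nanotubes. The set was a list of 41 gene symbols, chosen by name and role with earlier results of these data known. Each gene was read in all 8 libraries. Of the 41 genes, 39 had a row in the table of 23487 genes, and the expression of Srxn1 and Pgd is not analysed here. Cbr1, a carbonyl reductase, had no count in any rat, and the other 38 genes passed the filter on low counts and were tested.

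Wistar rats of 8 weeks received either CNT-7, a rigid needle-like multi-walled carbon nanotube (MWCNT-XNRI-7) that causes mesothelioma in rodents, or CNT-T, a tangled nanotube that does not. Per the study's methods all rats were female and both particles were given into the peritoneal cavity at the same mass. Macrophages were isolated by flow cytometry 15 days after injection, from 4 rats per particle, on a gate for high CD11b/c and dim His48, and their mRNA was sequenced. Both groups had received a particle and no untreated rats were analysed here, so each difference is between the 2 particles and not from a resting level. Each library is a bulk sample of sorted cells, in which fewer cells of a type and less RNA per cell cannot be told apart.

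Nrf2, encoded by Nfe2l2, is the transcription factor that drives much of the antioxidant programme. Its partner Keap1 holds it in the cytoplasm and marks it for degradation until oxidants or electrophiles modify Keap1, after which Nrf2 enters the nucleus and binds antioxidant response elements with small Maf proteins. Its regulation is therefore largely at the level of the protein, and the mRNA of its targets is commonly read as a sign of its activity. In macrophages, which make oxidants while they engulf particles, the same programme supplies glutathione, thioredoxin and haem-degrading enzymes.

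The letters of the antioxidant response element, TGACNNNGC, were searched on both strands in the 250 bases before the start of each gene in RefSeq promoters (build GRCr8, matched by symbol, while the counts were made on Rnor_6.0). A window was found for 37 of the 41 genes, with none for Hmox1, Gsr, Mgst2 and Prdx6. The letters were present in 6 of the 37 windows (16.2%), beside 12.9% of the 8872 windows of genes tested and 10.2% of all 27457 windows. The related letters TGACTCA, which overlap with the element when GC follows, were in 5 of the 37 windows (13.5%), beside 2.99% of the windows of genes tested and 3.98% of all windows. The 4 windows below are shown because these genes, the regulatory subunit of glutathione synthesis (Gclm), a glutathione transferase (Gstp1), malic enzyme (Me1) and peroxiredoxin 1 (Prdx1), carried the letters and were highest in the same 2 rats, CNT-7 rat 10 and CNT-T rat 13. Each is written 5′ to 3′ on the strand of its gene with the element in capitals, which for Gclm and Prdx1 is the reverse complement. The windows are chr2:213031885-213032134 (plus strand) for Gclm, chr1:210769706-210769955 (minus) for Gstp1, chr8:96540245-96540494 (minus) for Me1 and chr5:135383656-135383905 (plus) for Prdx1.
Gclm: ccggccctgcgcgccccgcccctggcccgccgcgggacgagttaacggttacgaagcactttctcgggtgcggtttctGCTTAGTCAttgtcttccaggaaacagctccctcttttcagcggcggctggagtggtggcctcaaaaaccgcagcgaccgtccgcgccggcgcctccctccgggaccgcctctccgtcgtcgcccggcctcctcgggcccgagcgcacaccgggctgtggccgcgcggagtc
Gstp1: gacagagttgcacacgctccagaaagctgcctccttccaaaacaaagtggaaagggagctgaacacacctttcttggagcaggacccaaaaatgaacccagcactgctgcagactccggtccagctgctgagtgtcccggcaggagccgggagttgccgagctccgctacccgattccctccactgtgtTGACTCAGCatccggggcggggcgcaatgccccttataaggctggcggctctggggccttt
Me1: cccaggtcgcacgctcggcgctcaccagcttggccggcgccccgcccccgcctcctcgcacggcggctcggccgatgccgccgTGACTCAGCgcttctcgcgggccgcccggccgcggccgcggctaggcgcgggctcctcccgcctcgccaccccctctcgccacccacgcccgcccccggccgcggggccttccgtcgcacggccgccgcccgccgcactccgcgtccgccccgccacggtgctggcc
Prdx1: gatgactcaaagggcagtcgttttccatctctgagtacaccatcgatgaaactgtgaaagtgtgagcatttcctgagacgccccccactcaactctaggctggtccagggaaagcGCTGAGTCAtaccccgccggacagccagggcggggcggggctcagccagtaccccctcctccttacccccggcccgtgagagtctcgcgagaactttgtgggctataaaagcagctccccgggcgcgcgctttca
The element began 172 bases before the start in Gclm, where it read TGACTAAGC, and 61, 167 and 135 bases before it in Gstp1, Me1 and Prdx1, where it read TGACTCAGC. The other 2 windows with the letters were those of Idh1 and Sod2, both TGACCCTGC, at 83 and 35 bases. By the calls defined below, the letters were in 2 of 10 windows of genes higher after CNT-7 and 0 of 5 lower. They were in 4 of 19 windows of genes not called, which are the 4 shown. The rat pattern used to pick these 4 was seen in the present values, and its relation to the letters was not tested. Abcc1, Cat, Nqo1, Slc7a11 and Txnrd1, which were also highest in CNT-7 rat 10 and CNT-T rat 13, had windows without the letters. A match describes letters in these windows and is not evidence of binding. An absence covers only these 250 bases, and sequence farther from the start was not searched, so it does not show that a gene lacks the element.

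The libraries held 27195157 to 33732981 estimated counts each, and 3 counts in a library correspond to 0.0887 to 0.109 CPM (counts scaled to a common library size of 1000000), a limit that covers counting error only. Levels are given in CPM after TMM scaling, which adjusts for differences in composition between libraries, and are compared between rats for one gene and not between genes. A gene was called when its adjusted p was under 0.10 in the quasi-likelihood test of edgeR, adjusted by Benjamini-Hochberg over the 12124 genes tested. A positive log2 fold change means a higher level after CNT-7, and its standard error is given as SE. The macrophage markers Cd68 and Csf1r were detected in all rats, at 496 to 603 and 1131 to 1297 CPM after CNT-7 and at 591 to 864 and 1359 to 1691 CPM after CNT-T, while Marco was at most 2.06 CPM. Of the 9 macrophage markers, Cd68, Csf1r, Adgre1 and Fcgr1a fell (log2 fold changes of -0.34, -0.33, -1.13 and -0.54), Cd14 rose by 0.46 (edgeR adjusted p = 0.071, 0.027, 0.00040, 0.011 and 0.0071, in that order), and the other 4 were not called. The summed level of 10 listed erythroid markers (9 in the table) was 215 to 702 CPM in CNT-7 rats and 14.6 to 56.3 CPM in CNT-T rats. Its most abundant gene in the CNT-7 rats was the alpha globin Hba-a2 (180 to 565 CPM, against 9.31 to 43.2 CPM after CNT-T), and Alas2, of haem synthesis in red cell precursors, was at most 0.469 CPM. The alpha globins Hba-a1 and Hba-a2 were called higher after CNT-7 (edgeR adjusted p = 0.021 and 0.0017). The groups overlapped for Hbb, Hbb-b1, Slc4a1 and Epb42, which were not called (edgeR adjusted p = 0.42, 0.39, 0.71 and 0.73). The summed level of 5 cell cycle markers was 182 to 409 CPM in CNT-7 rats and 726 to 823 CPM in CNT-T rats. The part of these differences in the results for the antioxidant genes was not tested.

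Of the 38 antioxidant genes tested, 10 were higher and 7 were lower after CNT-7 than after CNT-T, and 21 were not called. That is 26.3% higher and 18.4% lower, beside 13.9% higher and 14% lower (27.9% in all) of the 12124 genes tested. The median log2 fold change of the 38 genes was 0.01, as over all genes tested (0.01), with 19 values above 0 and 19 below, so the set did not move one way. The values of the 4 rats lay wholly above those of the other particle in 6 genes and wholly below in 4, beside 12.3% and 12.6% (24.9% in all) of all genes. Slc7a11, the cystine importer, and the transferase Gstm1 showed the largest rises, while the membrane transferase Mgst2 showed the largest fall. Whichever 1 rat was left out, 9 genes stayed called, of which 5 rose and 4 fell, beside 8.83% and 9.44% (18.3% in all) of the genes tested. Without CNT-T rat 13, which stood apart in several of these genes, 11 were higher and 6 lower, beside 12.5% and 12.6% (25.1% in all) of the genes tested in that fit.

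Stricter rules gave smaller counts with the same mix of directions. At an adjusted p under 0.05, 11 genes were called, 6 higher and 5 lower, beside 10.1% and 10.6% (20.7% in all) of the genes tested. With a change of at least 2-fold, 5 were called, 3 higher (Slc7a11, Gstm1, Aox1) and 2 lower (Mgst2, Gpx3), beside 4.55% and 3.74% (8.3% in all). DESeq2, which is not a stricter rule, called 19, of which 11 were higher and 8 lower, beside 14.7% and 15.3% (30% in all). In a single simulated data set 26.6% of DESeq2 calls were false, beside 12% of edgeR calls. That set had only 200 changed genes and was drawn with the spread between rats fitted by edgeR. These shares therefore need not hold for the calls here.

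**Figure D1:**
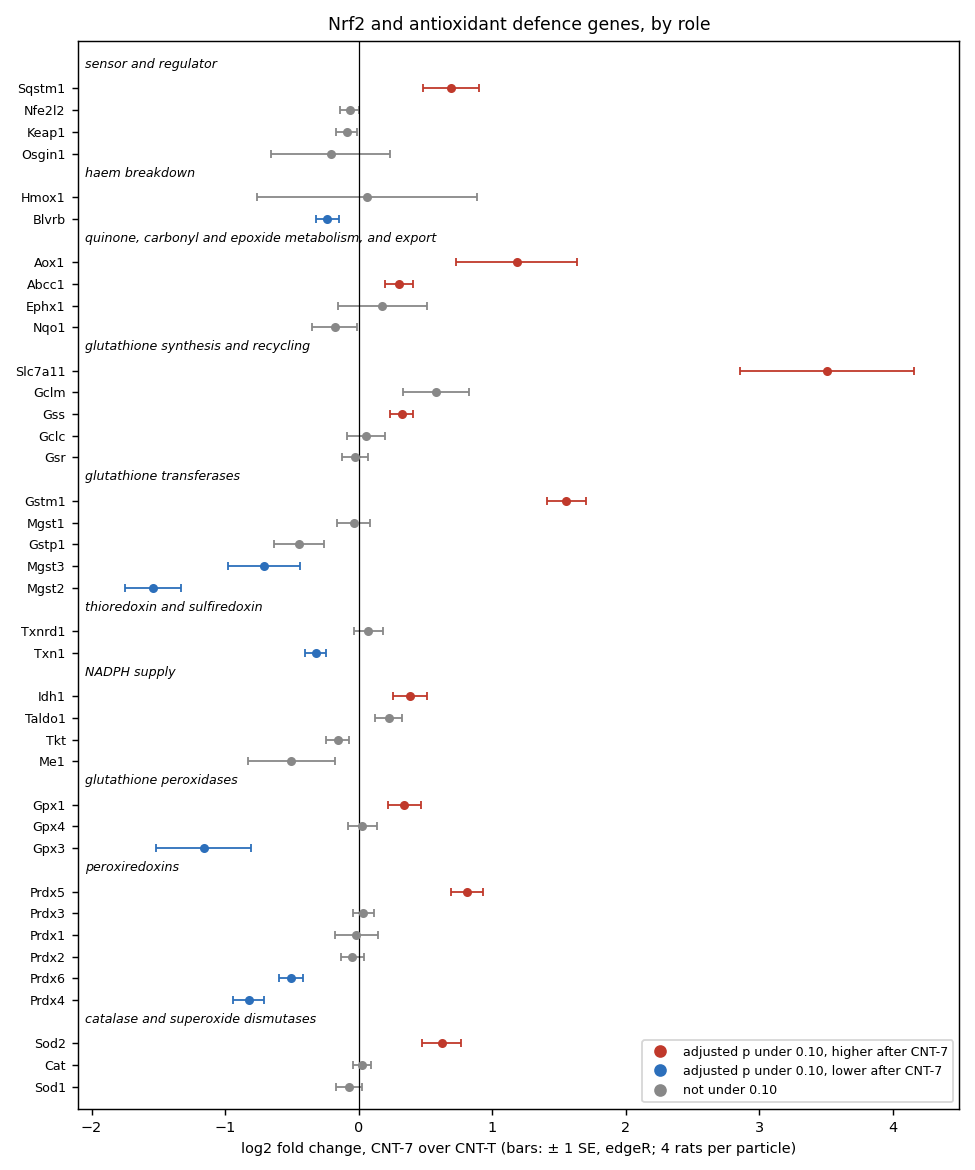
The log2 fold change of each of the 38 genes (x axis, CNT-7 over CNT-T, bars ± 1 SE, 4 rats per particle) is plotted by role, with called genes in red when higher and in blue when lower after CNT-7. Slc7a11 stands farthest to the right at 3.51 and Mgst2 farthest to the left at -1.54, and most roles hold genes on both sides of 0.

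The sensor pair did not differ detectably between the particles. Nfe2l2 was at 119, 131, 113 and 112 CPM in CNT-7 rats 3, 5, 10 and 11 and at 128, 124, 123 and 121 CPM in CNT-T rats 1, 2, 12 and 13. The groups overlapped, and the difference was -0.07 (SE 0.07, edgeR adjusted p = 0.56), with a 95% confidence interval of -0.22 to 0.09. Keap1 was at 36.6, 43.1, 41.6 and 44.1 CPM in the CNT-7 rats and at 47.1, 44.2, 44.2 and 40.5 CPM in the CNT-T rats, in the same order of rats. These values overlapped too (-0.09, SE 0.08, edgeR adjusted p = 0.48). Osgin1, an Nrf2 target that restrains cell growth, ranged from 4.40 to 19.8 CPM after CNT-7 and from 8.74 to 22.8 CPM after CNT-T (edgeR adjusted p = 0.79).

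Sqstm1, the autophagy adaptor p62 that binds Keap1 and is itself an Nrf2 target, was at 122, 174, 170 and 134 CPM in the CNT-7 rats and at 76.0, 84.9, 72.0 and 138 CPM in the CNT-T rats. CNT-T rat 13 lay among the CNT-7 rats and the other 3 CNT-T rats lay below all of them. Sqstm1 rose by 0.69 (SE 0.21, edgeR adjusted p = 0.045). The call was lost without CNT-7 rat 5 (edgeR adjusted p = 0.116) and without CNT-T rats 1, 2 or 12 (0.102, 0.113 and 0.119).

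In haem breakdown, Hmox1 varied more from rat to rat within each group than any other of the 38 genes. Hmox1, the inducible haem oxygenase that turns haem into biliverdin, iron and carbon monoxide, was at 155, 406, 779 and 373 CPM in the CNT-7 rats. In the CNT-T rats it was at 140, 166, 77.7 and 1256 CPM, so that CNT-T rat 13 held the highest value of all 8 rats and CNT-T rat 12 the lowest. The difference over all rats was 0.06 (SE 0.83, edgeR adjusted p = 0.97) with a 95% confidence interval of -1.79 to 1.91, which includes a 2-fold change in either direction. Without CNT-T rat 13 the difference was 1.74 and the gene was called (edgeR adjusted p = 0.045). Without CNT-7 rat 10 or CNT-T rats 1, 2 or 12 it took the other sign (-0.40, -0.23, -0.20 and -0.28), with no call.

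Blvrb, a biliverdin reductase abundant in red cells, was at 78.8, 84.8, 88.6 and 99.6 CPM in the CNT-7 rats and at 96.1, 113, 103 and 101 CPM in the CNT-T rats. The groups overlapped through CNT-7 rat 11, and Blvrb fell by 0.23 on the log2 scale (SE 0.09, edgeR adjusted p = 0.088). The call was lost without CNT-7 rats 3, 5 or 10 (edgeR adjusted p = 0.208, 0.181 and 0.138) and without CNT-T rats 2, 12 or 13 (0.205, 0.161 and 0.117). The erythroid marker sum, mostly alpha globin, lay the other way, higher in the CNT-7 rats, and its part in the value was not tested.

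Among genes of quinone, epoxide and aldehyde metabolism and export, Nqo1, the quinone reductase that is a standard Nrf2 target, did not differ detectably. It was at 28.5, 30.5, 38.3 and 26.5 CPM in the CNT-7 rats and at 37.1, 30.8, 27.4 and 45.2 CPM in the CNT-T rats. CNT-7 rat 10 and CNT-T rat 13 were the highest of their groups, and the difference was -0.18 (SE 0.17, edgeR adjusted p = 0.50). Ephx1, the microsomal epoxide hydrolase, ranged from 3.57 to 12.8 CPM after CNT-7 and from 7.20 to 10.9 CPM after CNT-T (0.18, edgeR adjusted p = 0.76), and was called without CNT-7 rat 10, its lowest value (0.45, edgeR adjusted p = 0.088).

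Abcc1, which exports glutathione conjugates, was at 31.9, 36.8, 42.5 and 33.0 CPM in the CNT-7 rats and at 30.6, 27.05, 27.3 and 31.6 CPM in the CNT-T rats. The groups did not overlap, by a small margin between CNT-7 rat 3 and CNT-T rat 13, and Abcc1 rose by 0.31 (SE 0.10, edgeR adjusted p = 0.068). Its call was lost without CNT-7 rats 5 or 10 (edgeR adjusted p = 0.142 and 0.145) and without CNT-T rats 2 or 12 (0.163 and 0.169).

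Aox1, an aldehyde oxidase, was low, at 0.657, 1.34, 1.16 and 0.471 CPM (13 to 40 counts) in the CNT-7 rats and at 0.261, 0.207, 0.560 and 0.573 CPM (7 to 17 counts) in the CNT-T rats. The groups overlapped through CNT-7 rat 11. Aox1 rose by 1.18 (SE 0.45, edgeR adjusted p = 0.098), a call that was lost without CNT-7 rats 3, 5 or 10 (edgeR adjusted p = 0.113, 0.249 and 0.196) and without CNT-T rats 1, 2 or 12 (0.195, 0.216 and 0.115).

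The largest change in the set was in the import of cystine for glutathione. Slc7a11, the cystine and glutamate exchanger xCT, was at 167, 133, 218 and 109 CPM in the CNT-7 rats and at 6.72, 6.98, 4.25 and 37.5 CPM in the CNT-T rats. All CNT-7 rats lay above all CNT-T rats, and CNT-T rat 13 lay well above the other 3 CNT-T rats. Slc7a11 rose by 3.51 (SE 0.65, edgeR adjusted p = 0.0053), an 11.4-fold difference, and stayed called with each rat left out in turn, with log2 fold changes of 3.20 to 4.71. Its partner chain Slc3a2, a gene from the wider pathway list, was at 223 to 271 CPM after CNT-7 and 188 to 242 CPM after CNT-T (0.16, edgeR adjusted p = 0.32).

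The enzymes that make glutathione from imported cystine moved less. Gclc, the catalytic subunit of the rate-limiting ligase, was at 90.1, 99.5, 99.3 and 87.9 CPM in the CNT-7 rats and at 68.1, 93.9, 84.8 and 116 CPM in the CNT-T rats. The CNT-T rats spanned the whole range of the CNT-7 rats (0.05, SE 0.14, edgeR adjusted p = 0.83). Gclm, the regulatory subunit, was at 29.04, 32.6, 55.5 and 31.9 CPM in the CNT-7 rats and at 24.1, 21.0, 18.8 and 36.0 CPM in the CNT-T rats. CNT-7 rat 10 stood above its group, and CNT-T rat 13 lay within the CNT-7 values while the other 3 CNT-T rats lay below them. The Gclm difference was 0.58 (SE 0.25, edgeR adjusted p = 0.14), and it was called without CNT-T rat 13 (0.80, edgeR adjusted p = 0.042) and in DESeq2 (0.57, DESeq2 adjusted p = 0.070).

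Gss, which adds glycine in the last step, was at 15.7, 16.9, 17.7 and 17.4 CPM in the CNT-7 rats and at 14.0, 14.4, 12.6 and 13.03 CPM in the CNT-T rats. The groups did not overlap, and Gss rose by 0.32 (SE 0.08, edgeR adjusted p = 0.024), in every fit that left out 1 rat. Gsr, which returns oxidised glutathione to its reduced form, was at 107 to 132 CPM after CNT-7 and 111 to 142 CPM after CNT-T (-0.03, SE 0.10, edgeR adjusted p = 0.87).

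The glutathione transferases moved in opposite directions. Gstm1, a cytosolic transferase, was at 256, 297, 200.3 and 187 CPM in the CNT-7 rats and at 81.9, 78.3, 87.1 and 72.7 CPM in the CNT-T rats. The groups were far apart, and Gstm1 rose by 1.56 (SE 0.15, edgeR adjusted p = 0.00027), a 2.94-fold difference. Gstm1 belongs to a family of similar genes among which reads may be shared. Of its relatives in the wider list, named after their values were seen, Gstm4 was at 15.8 to 18.5 CPM after CNT-7 and 13.4 to 16.1 CPM after CNT-T (0.25, edgeR adjusted p = 0.096). Gstm3 was at 1.11 to 1.41 and 0.978 to 1.48 CPM (0.11, edgeR adjusted p = 0.77). Gstm2 was low, at 0.543 to 1.25 CPM (15 to 38 counts) and 0.0330 to 0.107 CPM (1 to 3 counts), and rose by 3.57 (SE 0.45, edgeR adjusted p = 0.00095).

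Mgst2, a membrane transferase that can also make leukotriene C4, was at 18.1, 20.03, 16.6 and 13.1 CPM in the CNT-7 rats and at 63.1, 33.1, 58.4 and 42.9 CPM in the CNT-T rats. The groups did not overlap, and Mgst2 fell by 1.54 on the log2 scale (SE 0.21, edgeR adjusted p = 0.0012), a 2.91-fold difference. Mgst3, another membrane transferase, was at 2.66, 1.64, 1.52 and 1.23 CPM in the CNT-7 rats and at 2.999, 3.64, 2.74 and 2.18 CPM in the CNT-T rats. CNT-7 rat 3 overlapped with the CNT-T rats, and Mgst3 fell by 0.71 (SE 0.27, edgeR adjusted p = 0.096). The Mgst3 call was lost without CNT-7 rats 5, 10 or 11 (edgeR adjusted p = 0.194, 0.191 and 0.181) and without CNT-T rats 1, 2 or 12 (0.155, 0.226 and 0.155).

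The other transferases were not called. Gstp1, the pi-class cytosolic enzyme, was at 17.1 to 21.7 CPM after CNT-7 and 18.5 to 37.2 CPM after CNT-T (-0.45, SE 0.19, edgeR adjusted p = 0.13). It was called without CNT-T rat 2, the lowest of its group (-0.60, edgeR adjusted p = 0.028), and in DESeq2 (-0.45, DESeq2 adjusted p = 0.077). Mgst1, a microsomal transferase, was at 123 to 145 CPM after CNT-7 and 113 to 170 CPM after CNT-T (-0.04, edgeR adjusted p = 0.86).

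In the thioredoxin system the electron carrier fell and its reductase was not called. Txn1, thioredoxin itself, was at 483, 492, 452 and 529 CPM in the CNT-7 rats and at 595, 646, 642 and 564 CPM in the CNT-T rats. All CNT-7 rats lay below all CNT-T rats, and Txn1 fell by 0.32 on the log2 scale (SE 0.08, edgeR adjusted p = 0.017). Txnrd1, the reductase that recharges thioredoxin and a standard Nrf2 target, was at 126, 137, 161 and 130 CPM in the CNT-7 rats and at 118, 119, 134 and 155 CPM in the CNT-T rats. The groups overlapped, with CNT-7 rat 10 and CNT-T rat 13 the highest of each (0.07, SE 0.11, edgeR adjusted p = 0.70).

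Of the enzymes that supply NADPH for both systems, 1 of 4 was called (25%, beside 27.9% of all genes tested). Idh1, the cytosolic isocitrate dehydrogenase, was at 115, 170, 164 and 135 CPM in the CNT-7 rats and at 101, 104, 119 and 124 CPM in the CNT-T rats. CNT-7 rat 3 lay among the CNT-T rats, and Idh1 rose by 0.38 (SE 0.13, edgeR adjusted p = 0.063). The call was lost without CNT-7 rats 5 or 10 (edgeR adjusted p = 0.163 and 0.141) and without CNT-T rats 1, 2 or 12 (0.135, 0.150 and 0.101). Me1, malic enzyme, was at 20.5 to 54.6 CPM after CNT-7 and 29.3 to 78.8 CPM after CNT-T (-0.50, SE 0.33, edgeR adjusted p = 0.32). Tkt and Taldo1 of the pentose phosphate pathway had differences of -0.16 and 0.22 (edgeR adjusted p = 0.23 and 0.16), and Taldo1 was called without CNT-7 rat 11 (0.30, edgeR adjusted p = 0.050).

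The peroxiredoxins, which reduce peroxides with a reactive cysteine, were divided. Prdx5, found in mitochondria, peroxisomes and cytosol, was at 498, 495, 668 and 456 CPM in the CNT-7 rats and at 312, 276, 315 and 303 CPM in the CNT-T rats. The groups did not overlap, and Prdx5 rose by 0.81 (SE 0.12, edgeR adjusted p = 0.0019). Prdx4, the form of the endoplasmic reticulum, was at 67.3, 53.7, 44.6 and 58.6 CPM in the CNT-7 rats and at 107, 97.0, 101 and 92.6 CPM in the CNT-T rats. Here the CNT-7 rats lay below, and Prdx4 fell by 0.82 on the log2 scale (SE 0.12, edgeR adjusted p = 0.0015). Prdx6, which also acts on phospholipids, was at 257, 294, 304 and 320 CPM in the CNT-7 rats and at 398, 461, 402 and 410 CPM in the CNT-T rats. Again no rats overlapped, and Prdx6 fell by 0.51 (SE 0.09, edgeR adjusted p = 0.0038). Each of these 3 calls stood with any 1 rat left out.

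The other peroxiredoxins were not called. Prdx1, a cytosolic form and an Nrf2 target, was at 398 to 612 CPM after CNT-7 and 403 to 594 CPM after CNT-T (-0.02, SE 0.16, edgeR adjusted p = 0.96). Prdx2, abundant in red cells, and the mitochondrial Prdx3 had differences of -0.05 and 0.03 (edgeR adjusted p = 0.75 and 0.81).

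Of the 6 superoxide dismutases, catalase and glutathione peroxidases tested, 2 rose and 1 fell, beside 13.9% and 14% of all genes tested. Sod2, the mitochondrial manganese dismutase that inflammatory signals also induce, was at 156, 175, 229 and 239 CPM in the CNT-7 rats and at 116, 146, 117 and 141 CPM in the CNT-T rats. The groups did not overlap, and Sod2 rose by 0.62 (SE 0.15, edgeR adjusted p = 0.016), in every fit that left out 1 rat. The cytosolic Sod1 and catalase (Cat) were not called (-0.07 and 0.03, edgeR adjusted p = 0.67 and 0.81), and Cat stayed between 116 and 130 CPM in all 8 rats.

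Gpx1, the abundant cytosolic glutathione peroxidase, was at 1321, 1115, 1457 and 1023 CPM in the CNT-7 rats and at 1010.3, 880, 1066 and 920 CPM in the CNT-T rats. CNT-7 rat 11 lay below CNT-T rat 12, and Gpx1 rose by 0.34 (SE 0.12, edgeR adjusted p = 0.075). The call was lost without CNT-7 rats 3 or 10 (edgeR adjusted p = 0.164 and 0.169) and without CNT-T rats 1, 2 or 13 (0.102, 0.177 and 0.150). Red cells are rich in Gpx1, Cat, Prdx2 and Sod1. The erythroid marker sum, mostly alpha globin, was higher in all CNT-7 rats, while Cat, Prdx2 and Sod1 were not called. The part of erythroid RNA in the Gpx1 value was not tested.

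Gpx3, the secreted peroxidase, was low, at 0.788, 0.871, 1.12 and 1.99 CPM in the CNT-7 rats and at 1.63, 2.34, 3.76 and 2.94 CPM in the CNT-T rats. The groups overlapped only through CNT-7 rat 11 and CNT-T rat 1, and Gpx3 fell by 1.16 on the log2 scale (SE 0.36, edgeR adjusted p = 0.046). Its call was lost without CNT-7 rats 3 or 5 (edgeR adjusted p = 0.112 and 0.118) and without CNT-T rat 12 (0.131). Gpx4, which protects membrane lipids from peroxidation, had a difference of 0.03 (SE 0.11, edgeR adjusted p = 0.89).

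**Figure D2:**
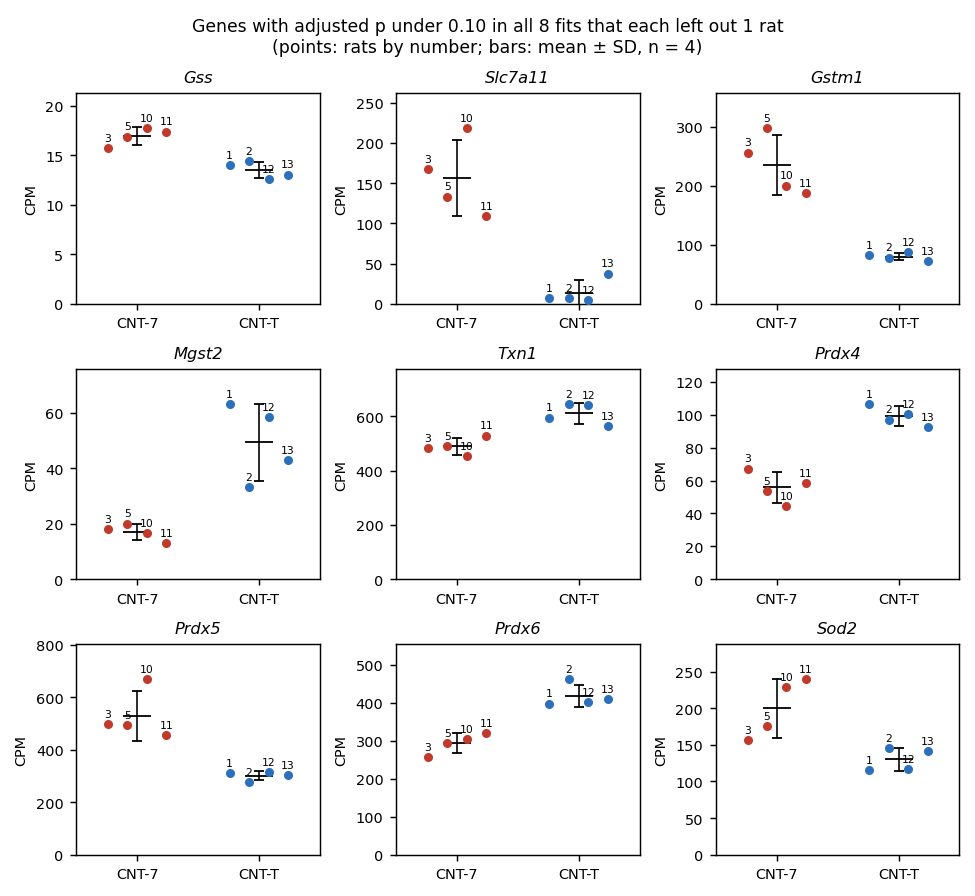
CPM (y axis, from 0) in each rat for the 9 genes that were called with any 1 rat left out, with CNT-7 rats in red, CNT-T rats in blue, points labelled with rat numbers and black bars for mean ± SD (n = 4). In each panel the 2 groups do not overlap, with the CNT-7 rats above in 5 genes (Gss, Slc7a11, Gstm1, Prdx5, Sod2) and below in 4 (Mgst2, Txn1, Prdx4, Prdx6).

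Several of the standard Nrf2 targets varied more between rats of one group than between the particles. The following counts describe a pattern seen in these values and carry no test. CNT-T rat 13 had the highest value of its group in 16 of the 38 genes (42.1%), beside 29.2% of all genes tested, and CNT-7 rat 10 in 17 genes (44.7%), beside 30.6%. Both held at once in 11 genes (28.9%, beside 11.3% of all genes), which were Abcc1, Cat, Gclm, Gsr, Gstp1, Hmox1, Me1, Nqo1, Prdx1, Slc7a11 and Txnrd1. Other Nrf2 targets shared only part of this, since Sqstm1, Osgin1 and Gclc were highest in CNT-T rat 13 but, among the CNT-7 rats, in rat 5. At the other end, CNT-7 rat 3 had the lowest value of its group in 17 of the 38 genes (44.7%), beside 21.1% of all genes. CNT-7 rat 11 was lowest in 15 of the 38, beside 27.6% of all genes. CNT-T rats 1, 2, 12 and 13 were lowest in 12, 6, 10 and 10, beside 29.8%, 21.5%, 18.9% and 29.6%.

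The size of the rat-to-rat range differed widely between genes. The highest CNT-T rat was 16.2-fold above the lowest for Hmox1 and 8.82-fold for Slc7a11, beside a median of 1.28-fold over all genes tested. Among CNT-7 rats these ranges were 5.02-fold and 2.00-fold, beside a median of 1.29-fold. Nfe2l2 itself ranged 1.06-fold among CNT-T rats and 1.17-fold among CNT-7 rats, and its level in CNT-T rat 13, 121 CPM, was the lowest of that group. CNT-T rat 13 was more than 1.5 times above the next rat in Hmox1, Slc7a11 and Sqstm1, as in 1.90% of all genes, and CNT-7 rat 10 in Gclm and Hmox1, as in 1.63%. Akr1b8, an aldo-keto reductase from the wider pathway list named after its values were seen, was at 402 CPM in CNT-T rat 13, against 112 to 150 CPM in the rest of its group, and at 158 CPM in CNT-7 rat 10, against 48.8 to 83.4 CPM.

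The library of CNT-T rat 13 was the shallowest, at 27195157 counts. Its mean correlation with the other CNT-T libraries over all genes tested, on log2 CPM, was 0.990, the lowest of its group, which ranged up to 0.993. Its erythroid, neutrophil and cell cycle marker sums were 33.4, 38.5 and 823 CPM, the last the highest of the CNT-T rats. For CNT-7 rat 10 the mean correlation was 0.986 with the other CNT-7 libraries and 0.961 with the CNT-T libraries, each the lowest such value of all rats. Its erythroid, neutrophil and cell cycle marker sums were 215, 63.1 and 182 CPM, the lowest, highest and lowest of the CNT-7 rats. The part of these measures in the high Hmox1 and Slc7a11 values of CNT-T rat 13 and CNT-7 rat 10 was not tested.

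**Figure D3:**
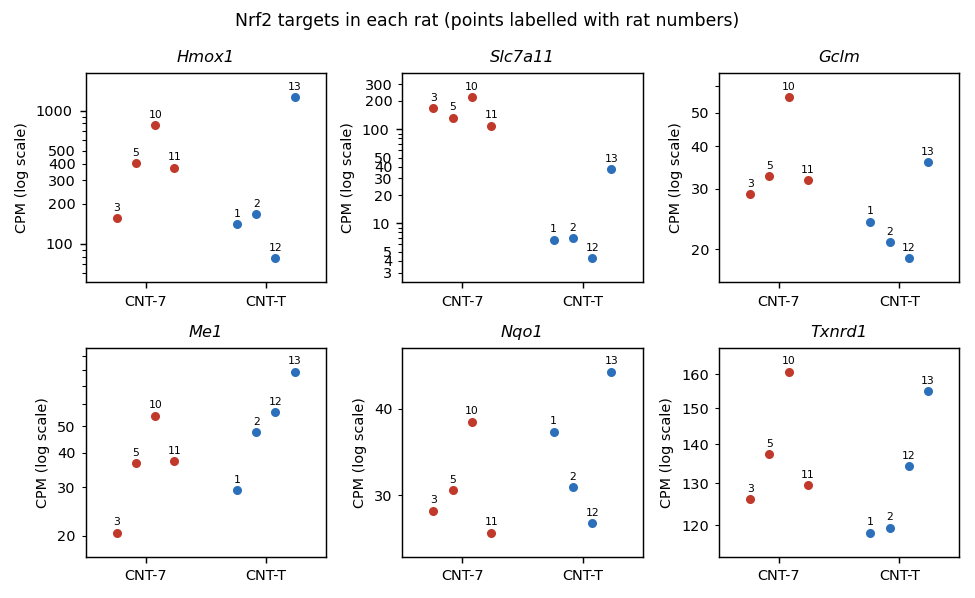
CPM on a logarithmic y axis in each rat for 6 Nrf2 targets chosen after their values were seen, with CNT-7 rats in red and CNT-T rats in blue and each point labelled with its rat number. CNT-T rat 13 is the highest CNT-T rat and rat 10 the highest CNT-7 rat in all 6 panels. Only in Slc7a11, of these 6, are the groups apart. Sqstm1, Osgin1 and Gclc, not plotted here, were highest in CNT-T rat 13 but, among the CNT-7 rats, in rat 5.

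**Figure D4:**
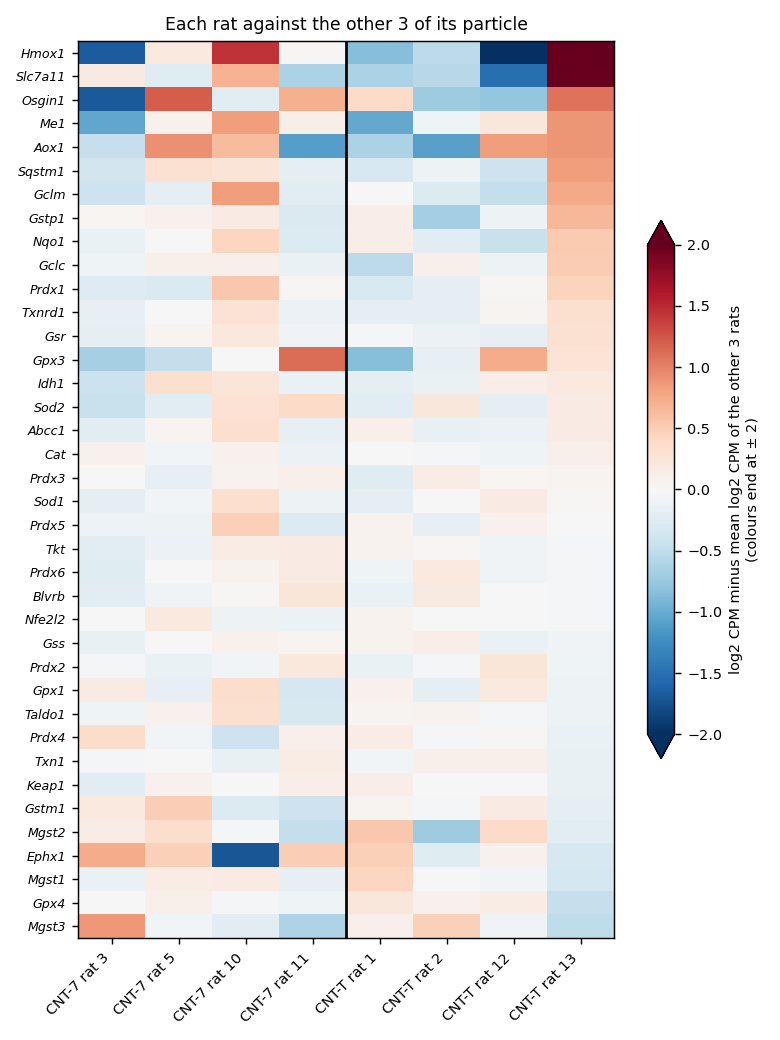
Each cell gives the log2 CPM of 1 gene (rows, ordered by CNT-T rat 13) in 1 rat (columns) minus the mean log2 CPM of the other 3 rats of the same particle, with red above and blue below and colours ending at ± 2. CNT-T rat 13 is at 3.37 for Hmox1 and 2.68 for Slc7a11, and CNT-7 rat 10 is at 1.44 and 0.70.

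The wider glutathione, thioredoxin, NADPH, Nrf2-partner and phase II lists were also chosen with earlier results of these data known. They held 126 further genes, of which 95 were tested. Of these, 19 rose and 20 fell (41.1% called, beside 27.9% of all genes tested), and their log2 fold changes had a median of 0.0028. Among 24 further glutathione genes 4 rose and 7 fell, among 18 thioredoxin and methionine sulfoxide genes 4 rose and 3 fell, and among 10 NADPH genes 2 rose and 3 fell. Among 19 Nrf2 partners and regulators 5 rose and 2 fell, and among 24 phase II, quinone and export genes 4 rose and 5 fell.

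The called genes with the largest changes, among those with a mean of at least 1 CPM, lay in several of these lists. Of the Nrf2 partners and regulators, Trim16, a protein that takes part in the response to protein damage, rose by 2.23 (SE 0.44, edgeR adjusted p = 0.0072). Atf3, a stress-induced transcription factor, rose by 1.69 (SE 0.17, edgeR adjusted p = 0.00037), and Maff, a small Maf protein, fell by 0.89 on the log2 scale (SE 0.31, edgeR adjusted p = 0.073). Of the glutathione genes, Oplah, which returns 5-oxoproline to glutamate, rose by 1.30 (SE 0.16, edgeR adjusted p = 0.00089). Gstk1, a kappa-class transferase, and Ggct, which forms 5-oxoproline, fell by 0.54 and 0.51 (edgeR adjusted p = 0.020 and 0.0034).

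In the phase II list, Cyp1b1, a cytochrome P450 better known as a target of the aryl hydrocarbon receptor, rose by 5.13 (SE 0.51, edgeR adjusted p = 0.00033), with means of 10.2 ± 6.28 CPM for CNT-7 and 0.289 ± 0.0994 CPM for CNT-T (SD, n = 4). Prnp, the prion protein, rose by 3.05 (SE 0.31, edgeR adjusted p = 0.00035), and Fth1, the ferritin heavy chain that stores iron, rose by 0.62 (SE 0.22, edgeR adjusted p = 0.074). Ptgr1, an alkenal reductase, fell by 1.71 (SE 0.26, edgeR adjusted p = 0.0020), and Por, the reductase that feeds electrons to P450 enzymes and haem oxygenase, fell by 0.51 (SE 0.13, edgeR adjusted p = 0.020). Nxn, a thioredoxin relative, fell by 0.69 (SE 0.26, edgeR adjusted p = 0.090). The groups overlapped for Fth1, Maff and Nxn, which were called in only 3, 3 and 2 of the 8 fits that left out 1 rat. Their highest edgeR adjusted p in those fits was 0.184, 0.195 and 0.211.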

How the data were processed

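RNA of sorted peritoneal macrophages from 8 rats (4 per particle) was sequenced as paired reads with a stranded mRNA kit. The authors quantified transcripts with Salmon on Ensembl Rnor_6.0 cDNA, summed them per gene and deposited estimated counts as whole numbers, with no further scaling. Fragments shared by similar genes were split by estimate, so close relatives are less certain.

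Counts were tested with edgeR 4.0.16 in R 4.3.3 (filterByExpr, minimum count 10 and total 15, TMM, quasi-likelihood test, all 8 rats, no covariate), with adjusted p under 0.10 as in the study's methods. SE was taken as the absolute log2 fold change over √F. The p-values set the difference between the particles against the spread between rats within the groups. Alternatives were DESeq2 1.42.0, upper-quartile scaling, other filters and thresholds, a block for the range of rat numbers, and leaving out each rat. The scripts were tested on a single simulated data set, drawn with the spread fitted by edgeR and with 200 genes changed. DESeq2 made more false calls than edgeR on it, which need not hold for the calls here. RefSeq promoters were read with pandas 2.3.3.

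The genes and lists were chosen with earlier results of these data known. CPM in every rat is given for each called gene and for Nfe2l2, Keap1, Hmox1, Nqo1, Gclc, Gclm, Slc7a11 and Txnrd1. Of the other pathway genes, at most 12 called ones with a mean of at least 1 CPM and the largest change are named. Summed CPM of further marker lists, in CNT-7 and CNT-T rats, was 15250 to 22327 and 23730 to 33873 for macrophages, 33.9 to 63.1 and 26.3 to 68.5 for neutrophils, 0.181 to 9.33 and 0.107 to 0.359 for eosinophils, 0.657 to 1.92 and 0.0296 to 2.44 for mast cells, 0.289 to 1.01 and 0.179 to 0.462 for mesothelial cells, 0.164 to 2.65 and 0.148 to 0.456 for B cells, 1.91 to 6.73 and 1.34 to 2.60 for T and NK cells, and 4.66 to 8.48 and 4.26 to 8.35 for dendritic cells.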

Additional observations from a re-analysis of the deposited data

Results flagged for a closer look

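In 3 of 100 groups of 4 rats examined, 1 rat stood apart from the other 3 by more than Dixon's 95% critical ratio for 4 samples (the gap to the nearest rat over the whole range). Chance alone gives about 5 in 100. For Hmox1, CNT-T rat 13 was at 1256 CPM and the other CNT-T rats at 77.7 to 166 CPM (ratio 0.925). For Slc7a11, CNT-T rat 13 was at 37.5 CPM and the others at 4.25 to 6.98 CPM (ratio 0.918). For Gclm, CNT-7 rat 10 was at 55.5 CPM and the other CNT-7 rats at 29.04 to 32.6 CPM (ratio 0.864).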

How the results depend on the processing

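Of 531 values of the 38 genes under the alternatives, 458 kept their direction and side of the threshold, 48 calls were lost and 7 gained. The other 18, from 10 genes not called with all rats or in those fits, changed sign when 1 rat was left out. Over all such fits, log2 fold changes ran from -0.55 to 0.12 for Osgin1 (changed without CNT-7 rat 3 or CNT-T rat 13), from -0.40 to 1.74 for Hmox1 (changed without CNT-7 rat 10 or CNT-T rats 1, 2 or 12), from -0.062 to 0.19 for Gclc (changed without CNT-T rat 1), from -0.081 to 0.053 for Gsr (changed without CNT-7 rat 3 or CNT-T rat 13), from -0.12 to 0.079 for Mgst1 (changed without CNT-7 rat 11 or CNT-T rat 1), from -0.0048 to 0.16 for Txnrd1 (changed without CNT-7 rat 10), from -0.076 to 0.082 for Gpx4 (changed without CNT-T rat 13), from -0.17 to 0.11 for Prdx1 (changed without CNT-7 rats 3 or 5 or CNT-T rat 13), from -0.10 to 0.015 for Prdx2 (changed without CNT-T rat 12) and from -0.023 to 0.072 for Prdx3 (changed without CNT-T rat 1). At an adjusted p under 0.05, 11 antioxidant genes were called (6 higher, beside 10.1% of all genes tested, and 5 lower, beside 10.6%), and 13 of the 95 wider pathway genes were higher and 13 lower. With a fold change of at least 2 as well, 1006 of all genes (552 higher, 454 lower), 5 antioxidant genes (3 higher, 2 lower) and 8 wider pathway genes (6 higher, 2 lower) were called, beside 4.55% higher and 3.74% lower of all genes. With each rat left out in turn, 10 to 17 antioxidant genes were called (5 to 11 higher, 4 to 6 lower), as were 24 to 37 wider pathway genes (12 to 22 higher, 12 to 19 lower), beside 21% to 28.7% of all genes tested in those fits. The antioxidant count was 10 without CNT-7 rat 5 or CNT-T rat 12 (21.2% and 21% of all genes) and 11 without CNT-T rat 2 (22.4%). With no filter on low counts Blvrb, Aox1 and Mgst3 were not called (edgeR adjusted p = 0.101, 0.130 and 0.116). Fits without 1 rat have fewer samples, and the cause of the other changes was not tested. No paired analysis was possible because the groups share no rat number, and a block for the range of rat numbers changed no call among the 38 genes. With 4 rats per particle, genes as variable as Hmox1 have wide intervals.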
